A study of Mus musculus with 6 samples.

Results

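*Etv1*, *Etv4* and *Etv5* are the PEA3 factors, a branch of the ETS family of transcription factors. They were taken by gene symbol and not by a threshold on their values, though with earlier results of these data known. They make up 3 of the 53657 gene names counted in 6 RNA-seq libraries of sorted mouse germ cells. In the cells as sorted, *Etv5* was the highest of the 27 ETS genes per length of exon. *Etv4* ranked 3rd, about level with the ETS gene *Erf*, and *Etv1* was near the bottom of the family. None of the 3 passed the test between wild-type cells and cells with an *Hras* G12V allele, and all 3 had an estimated log2 fold change of -0.18 with an interval that included 0. *Etv4* and *Etv5* put the 6 libraries in the same order, which genes outside the family such as *Tmc6* shared. How many of all genes had that order was not counted.

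PEA3 factors are activators that bind DNA through the ETS domain, and their genes are switched on where fibroblast growth factors, or GDNF through RET and its co-receptor GFRA1, signal through RAS to the ERK kinases. The repressor capicua, encoded by *Cic*, holds these genes down until ERK signalling relieves the repression, and the ubiquitin ligase COP1 marks PEA3 proteins for degradation. In the testis *Etv5* is known for its part in the self-renewal of spermatogonial stem cells, where it acts in the GDNF response, and *Etv4* is expressed alongside it. *Etv1* is best known from neurons, muscle and the pacemaker cells of the gut.

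Each library came from the undifferentiated spermatogonia of 1 adult mouse, sorted as tdTomato-positive cells bright for the surface protein MCAM. Tamoxifen had been given in 2 courses of 4 days, and the cells were taken 3 months later. The 3 wild-type mice (WT) were *Gfra1-creERT2*; *tdTom fl/-* littermates, and the 3 mutants (MUT) carried *FR-Hras G12V fl/-* in addition, an allele in which Cre removes the upstream wild-type copy of *Hras* and leaves a copy with G12V under the gene's own promoter. All 6 mice therefore carried the inducible Cre and the tdTomato reporter at *Rosa26* and had received tamoxifen. Cre is driven by the *Gfra1* promoter, so only germ cells that had used that promoter at the time of tamoxifen, and their progeny, were labelled, and the mice were of mixed background. MCAM is also made by somatic cells of the testis. The share of recombined cells in each MUT library was not analysed here.

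The libraries held between 22729292 and 23550433 counts on genes. Wherever values of single libraries are given, they follow the replicate numbers, 1, 2 and 3. *Hras*, the targeted gene, was counted 1300, 1407 and 1542 times in WT libraries, against 1600, 1594 and 1426 times in MUT libraries. The groups overlapped, and counts over the whole gene do not separate the mutant from the wild-type allele, so the genotype labels were not checked by these counts. The reporter tdTomato was counted in every library, at 52.6 to 66.4 CPM (counts scaled to the size of the library, with TMM factors). The markers of undifferentiated spermatogonia, 11 genes summed, stood at 3360 to 3913 CPM in WT and at 3495 to 3935 CPM in MUT. The 6 markers of differentiating spermatogonia summed to 764 to 828 CPM in WT and 848 to 1020 CPM in MUT, and the sums did not overlap, as with 4.69% of single genes, though 4 of the 6 markers on their own did overlap. Markers of spermatocytes summed to 425 to 653 CPM in WT and 525 to 536 CPM in MUT, and those of spermatids to 869 to 1476 and 601 to 1147 CPM. Of the somatic lists, macrophage markers were highest, at 522 to 774 CPM in WT and 436 to 582 CPM in MUT. Sertoli cell markers summed to 59.1 to 134 CPM in WT and 84.5 to 115 CPM in MUT, endothelial markers to 44.1 to 58.3 and 43.8 to 53.2 CPM, peritubular myoid markers to 7.91 to 9.68 and 9.15 to 12.8 CPM, and Leydig cell markers to 13.2 to 21.1 and 12.9 to 67.3 CPM, the last value being that of MUT replicate 3. No marker on any of these 9 lists was at or under 3 counts in all libraries. In bulk RNA of this kind, fewer cells of a type and less RNA per cell cannot be told apart.

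The 3 genes lie on different chromosomes of GRCm38. *Etv1* spans chr12:38779380-38870484 on the plus strand with 17 merged exons, *Etv4* spans chr11:101769742-101785371 on the minus strand with 14, and *Etv5* spans chr16:22381309-22439719 on the minus strand with 15. Counting took no notice of strand, but no other annotated gene overlapped any of the 3 spans on either strand. Fragments of transcripts outside the annotation were not looked for. Because the 3 genes are related, their transcripts were also compared with each other. The stretch of the coding sequences where the 3 are most alike, 90 bases long, lies within the part that codes for the ETS domain, the piece of the protein that contacts DNA. It falls across exons 12 and 13 of the 13 exons of Etv1-201, Etv4-201 and Etv5-203, the transcripts with the longest coding sequence in GENCODE vM21. The 3 stretches are shown on the coding strand to show how far fragments of one gene could be taken for another, and capitals mark the bases that are not the same in all 3.
Etv1, chr12:38861305-38861388 and chr12:38865548-38865553: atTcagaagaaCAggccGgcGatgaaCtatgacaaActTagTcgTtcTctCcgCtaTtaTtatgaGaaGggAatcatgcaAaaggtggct
Etv4, chr11:101770969-101771052 and chr11:101770585-101770590: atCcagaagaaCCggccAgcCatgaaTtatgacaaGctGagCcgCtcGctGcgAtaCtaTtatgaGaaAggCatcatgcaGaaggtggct
Etv5, chr16:22386757-22386840 and chr16:22383686-22383691: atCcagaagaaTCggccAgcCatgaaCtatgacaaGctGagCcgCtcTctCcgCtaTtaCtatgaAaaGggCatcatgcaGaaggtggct
All 3 had the same base at 71 of the 90 positions, and 18 of the 19 positions that differed were the last base of a codon. *Etv4* and *Etv5* were identical at 81 positions, *Etv1* and *Etv5* at 77, and *Etv1* and *Etv4* at 74. Even over the whole transcripts the longest identical run was 23 bases for *Etv5* with either of the others and 18 bases for *Etv1* with *Etv4*, below the read length of 50 bases, so the 3 counts were taken as separate measurements.

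*Etv5* was the most abundant PEA3 factor. Its counts were 3675, 3695 and 2868 in the WT libraries, against 3660, 2507 and 2814 in the MUT libraries. Per length these counts came to 39.1, 38.5 and 29.5 CPM per kilobase of exon in WT and 39.0, 26.5 and 29.3 CPM per kilobase in MUT. *Etv4* had 1938, 1844 and 1738 counts in WT, against 1870, 1379 and 1598 in MUT. That is 27.3, 25.4 and 23.7 CPM per kilobase in WT and 26.3, 19.3 and 22.0 in MUT. *Etv1* was counted only 36, 41 and 41 times in WT and 30, 30 and 43 times in MUT, over 13296 bases of exon. Its level was thus 0.118, 0.132 and 0.130 CPM per kilobase in WT and 0.0986, 0.0979 and 0.138 in MUT.

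Among the 19656 genes that passed the filter on low counts, all 3 members included, the mean level of *Etv5* over the 6 libraries, 33.7 CPM per kilobase, was above that of 91.4% of genes. The mean of *Etv4*, 24.0 CPM per kilobase, was above that of 86.6%. *Etv1*, at 0.119 CPM per kilobase, was above 1.62% of them, where the median gene stood at 3.90. These shares depend on the length each gene is given, here all its exon bases. The *Etv1* counts nonetheless lay well over the 3 counts per library that a count of 0 would allow, so its RNA was detected in every mouse.

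The order of the 3 levels per length was the same in all 6 libraries. *Etv5* exceeded *Etv4* by a ratio of 1.25 to 1.52 (mean log2 ratio 0.48 ± 0.10, SD, n = 6, exact two-sided sign-flip permutation test over libraries, p = 0.0312, adjusted p = 0.0312). *Etv4* exceeded *Etv1* by a ratio of 159 to 267, and *Etv5* exceeded *Etv1* by a ratio of 212 to 395, each with the same p and adjusted p from the exact permutation test, which is the smallest that 6 libraries allow. This test takes the 6 libraries as independent, and with same-numbered WT and MUT libraries averaged (the replicate block) the 3 pairs gave an exact permutation p of 0.25 for each ratio, the smallest that 3 pairs allow. The 3 comparisons were adjusted together by the Benjamini-Hochberg method. These ratios depend on the length each gene is given. With the length of 1 coding transcript in place of all exon bases, an alternative added after the data were seen, the mean log2 ratio of *Etv5* to *Etv4* was 0.23, that of *Etv4* to *Etv1* 7.02 instead of 7.66 and that of *Etv5* to *Etv1* 7.24 instead of 8.14, with the order kept in every library. Of the summed PEA3 level per length, *Etv5* contributed 55.4% to 60.1%, *Etv4* 39.7% to 44.4% and *Etv1* 0.151% to 0.269%, depending on the library.

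**Figure D1:**
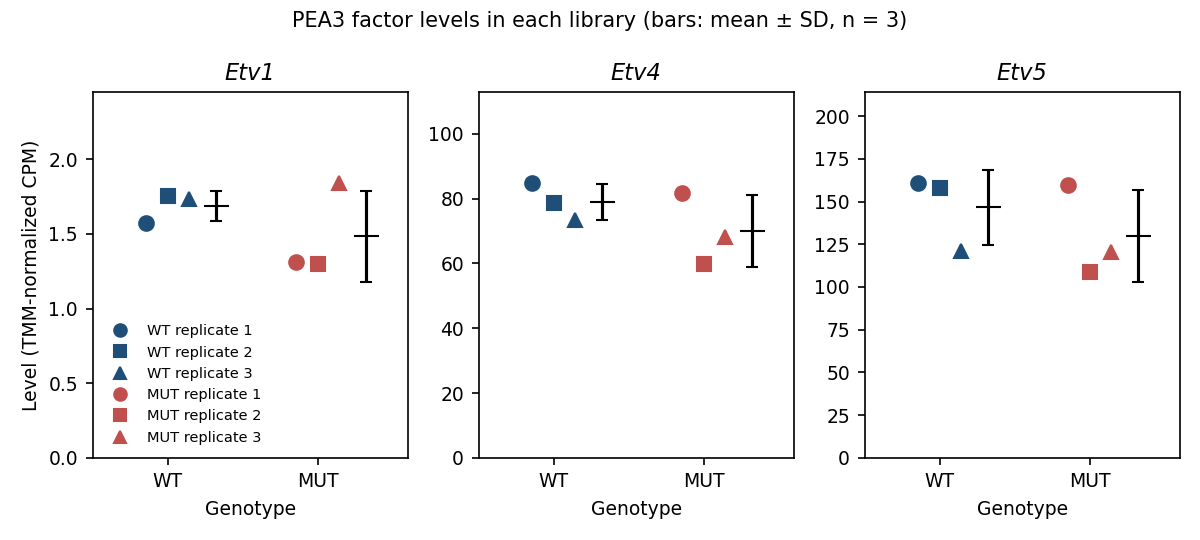
Level of *Etv1*, *Etv4* and *Etv5* in each library, in TMM-normalized CPM on axes that start at 0 (not scaled for length), with WT in blue, MUT in red, a symbol for each replicate number, and black bars for the mean ± SD of 3 libraries. *Etv5* lies near 160 CPM in WT replicates 1 and 2 and MUT replicate 1 and between 108.7 and 121 CPM in the other 3 libraries, and the genotypes overlap for every gene.

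Within the ETS family the PEA3 factors stood at both ends. *Etv5* ranked first of 27 genes by mean level per length, followed by *Erf*, an ETS repressor that ERK keeps out of the nucleus, with 24.3 CPM per kilobase and a range of 21.4 to 26.2. *Etv4* was next, with a range of 19.3 to 27.3 CPM per kilobase, so it and *Erf* did not differ beyond their spread, and *Etv4* was the higher in 5 of the 6 libraries, all but MUT replicate 2. *Erg*, whose product marks endothelial cells among other tissues, followed at 20.3 CPM per kilobase with a range of 16.8 to 22.5, which also overlapped that of *Etv4*. *Etv1* ranked 23rd, between *Elf3* and *Spdef*, 2 epithelial ETS genes. This rank rests on its 13296 bases of exon, where the transcript Etv1-201 has 6576, and the family was not ranked with other lengths. Together the 3 PEA3 factors made up 28.2%, 28.4% and 26.3% of the summed ETS level per length in WT libraries, against 28.3%, 21.2% and 24.2% in MUT libraries, lowest in MUT replicate 2.

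**Figure D2:**
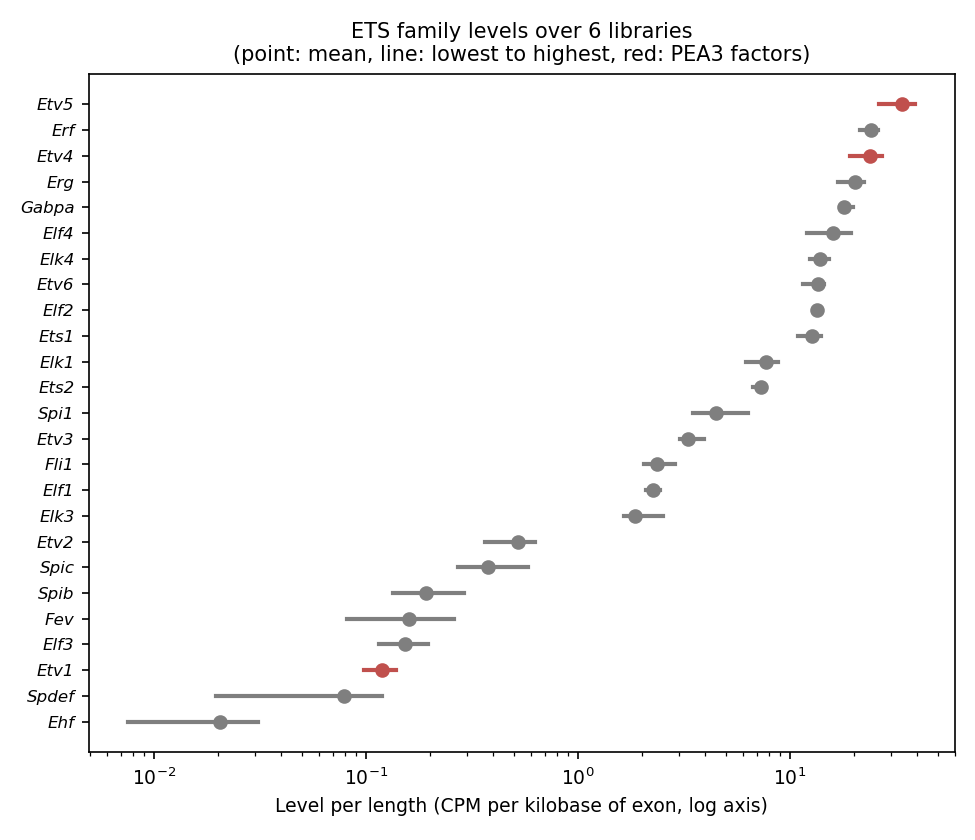
Mean level per length of the ETS genes over the 6 libraries, in CPM per kilobase of exon on a log axis, with a line from the lowest to the highest library and the PEA3 factors in red. *Etv5* is at the top, *Etv4* overlaps *Erf* and *Erg*, and *Etv1* is at about 0.119. *Etv3l*, with 0 counts, and *Elf5*, with 0 counts in at least 1 library, are left out of the plot.

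The comparison of MUT with WT asked whether an activated RAS allele, which acts upstream of the PEA3 genes, went with a different level of their RNA in these cells. It was fitted across all 19656 genes with edgeR's quasi-likelihood test and Benjamini-Hochberg adjustment, at a false discovery rate of 0.1. Of all genes tested, 2 or 0.0102% were called in either direction, and none of the 3 PEA3 factors was among them. DESeq2 called 0.0241% of its genes and edgeR with the replicate number as a block 0.0661%, again without a PEA3 factor. At an unadjusted p under 0.05, 1.44% of all genes were lower and 1.34% higher in MUT, and no member reached it with all libraries in the fit. With 3 libraries against 3, an exact permutation test cannot give a two-sided p below 0.1.

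*Etv5* was at 161, 158 and 121 CPM in WT libraries, against 160.0, 108.7 and 120.3 CPM in MUT libraries. MUT replicate 2 was the lowest library and WT replicate 1 the highest, and MUT replicate 1 lay between WT replicates 1 and 2. The WT mean was 147 ± 22.0 CPM (SD, n = 3), and the MUT mean 130 ± 26.9 CPM (SD, n = 3). The log2 fold change of *Etv5*, MUT minus WT, was -0.18 (SE 0.157, 95% interval -0.54 to 0.18, adjusted p = 0.998 from edgeR). On a linear scale the interval runs from 0.690-fold to 1.13-fold. An exact permutation test of the CPM values gave p = 0.4.

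*Etv4* was at 84.7, 78.8 and 73.5 CPM in WT and at 81.7, 59.8 and 68.3 CPM in MUT. The lowest pair of libraries were MUT replicates 2 and 3, but MUT replicate 1 exceeded WT replicates 2 and 3. WT averaged 79.0 ± 5.62 CPM (SD, n = 3), compared with 69.9 ± 11.1 CPM (SD, n = 3) for MUT. Its log2 fold change was -0.18 (SE 0.114, 95% interval -0.44 to 0.086, adjusted p = 0.998 from edgeR), an interval of 0.739-fold to 1.06-fold. The exact permutation p was 0.3.

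*Etv1* was at 1.57, 1.75 and 1.73 CPM in WT and at 1.31, 1.30 and 1.84 CPM in MUT. MUT replicate 3 had the highest value of all and MUT replicates 1 and 2 the lowest. WT averaged 1.69 ± 0.098 CPM (SD, n = 3), compared with 1.48 ± 0.307 CPM (SD, n = 3) for MUT, with a log2 fold change of -0.18 (SE 0.228, 95% interval -0.70 to 0.34, adjusted p = 0.998 from edgeR). The interval, 0.614-fold to 1.26-fold, is the widest of the 3. It rests on 30 to 43 counts a library and on the spread of 3 mice in each group.

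Which mice were in the fit moved the estimates of *Etv4* and *Etv5*. Without MUT replicate 1 the log2 fold change was -0.31 for *Etv4* (unadjusted p = 0.0168, adjusted p = 0.9999 from edgeR) and -0.36 for *Etv5* (unadjusted p = 0.0300, adjusted p = 0.9999 from edgeR). Without MUT replicate 2 it was -0.088 for *Etv4* and -0.079 for *Etv5*. Leaving out WT replicate 3 gave -0.30 for *Etv5*, and leaving out WT replicate 1 gave -0.12. For *Etv1*, MUT replicate 3 mattered most, with a log2 fold change of -0.37 without it and between -0.24 and -0.11 without any of the other 5. The direction stayed the same for each member whichever library was left out, and the lowest adjusted p over these fits was 0.792 from edgeR, for *Etv1* without MUT replicate 3.

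**Figure D3:**
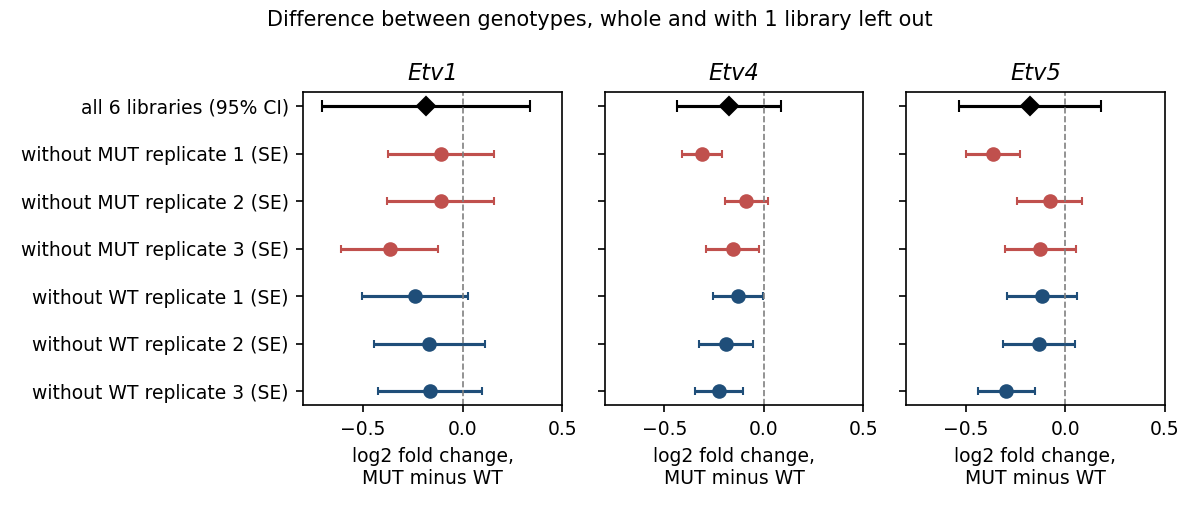
Log2 fold change of each PEA3 factor, MUT minus WT, with all 6 libraries (black diamond, 95% interval) and with each library left out in turn (circles, bars of 1 SE, red for a MUT and blue for a WT library left out). All estimates lie below 0, and those of *Etv4* and *Etv5* run from -0.31 and -0.36 without MUT replicate 1 to -0.088 and -0.079 without MUT replicate 2.

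Taken by replicate number, an assumed pairing, the difference in *Etv5* was largely that of 1 pair. The log2 ratio of MUT to WT was -0.0057 for the mice numbered 1, -0.54 for those numbered 2 and -0.011 for those numbered 3. *Etv4* gave -0.051, -0.40 and -0.10 in the same pairs, so the pair numbered 2 was again the farthest from 0. *Etv1* gave -0.26, -0.43 and 0.085. The GDNF co-receptor *Gfra1*, whose promoter drives Cre in these mice, gave -0.15, -0.50 and 0.057 and the receptor *Ret* -0.15, -0.35 and 0.13. With the replicate number as a block, *Etv4* had a log2 fold change of -0.18 (SE 0.0875, adjusted p = 0.766 from edgeR), *Etv5* -0.18 (SE 0.105, adjusted p = 0.857 from edgeR) and *Etv1* -0.19 (SE 0.242, adjusted p = 0.967 from edgeR).

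The spread between mice of the same genotype was described by the coefficient of variation (CV) of CPM. It was 15.0% in WT and 20.7% in MUT for *Etv5*, 7.12% and 15.8% for *Etv4*, and 5.82% and 20.7% for *Etv1*. Counting error alone would give a CV of 15.9% and 17.1% at the mean counts of *Etv1*, and of at most 2.49% for the other 2 genes. The spread that edgeR estimated for the genes beyond counting error, its biological coefficient of variation, was 0.140 for *Etv5*, 0.106 for *Etv4* and 0.160 for *Etv1*, beside a median of 0.142 over all tested genes. The highest MUT library had 1.47 times the *Etv5* level of the lowest and 1.37 times the *Etv4* level.

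The level of *Etv5* fell into separate sets of 3 libraries, since the gap of 36.7 CPM between 121 and 158 CPM took up 70.7% of its whole range of 51.9 CPM. The low set was WT replicate 3 with MUT replicates 2 and 3, and the high set was WT replicates 1 and 2 with MUT replicate 1, so both genotypes were in both. *Etv4* was lowest in the same 3 libraries, and the 2 genes ranked all 6 libraries alike. *Tmc6*, *Mical1* and *Sh2d3c*, which are not ETS genes, had the same order, and the share of all genes with it is not given here. With 3 libraries in a set, too few for a correlation, the relation between *Etv4* and *Etv5* was not tested. *Etv4* showed no such gap (34.2% of its range) and neither did *Etv1* (48.8%). Between *Etv4* and *Etv1*, the only pair for which a correlation was computed, Pearson's r over the 6 libraries was 0.162 (exact permutation p = 0.789) and Spearman's rho -0.0286 (exact permutation p = 1). Without MUT replicates 2 and 3, the libraries farthest from the median of *Etv4*, r was -0.559 over 4 libraries, of the opposite sign.

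**Figure D4:**
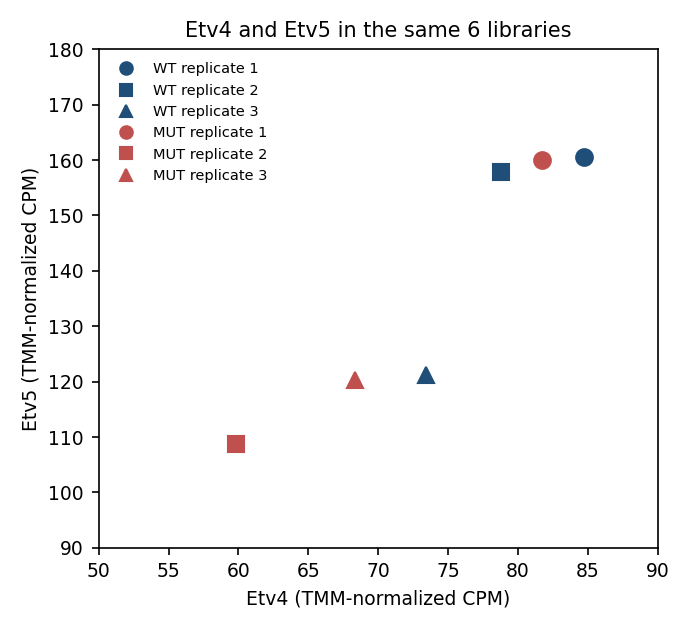
*Etv5* against *Etv4* in the same 6 libraries, both in TMM-normalized CPM on axes that do not start at 0, with WT in blue, MUT in red and a symbol for each replicate number. Both genotypes occur in the lower set of *Etv5* (108.7 to 121 CPM) and in the upper one (158 to 161 CPM), and the libraries have the same order on both axes.

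Both genes of the GDNF receptor were lowest in the same 3 libraries. *Gfra1* was at 147, 146 and 110 CPM in WT and 133, 104 and 115 CPM in MUT, and *Ret* at 443, 388 and 276 CPM in WT and 400.1, 303 and 301 CPM in MUT. Of the 11 genes on the list for undifferentiated spermatogonia, which holds no PEA3 factor, 3 were lowest in those libraries and the other 8 were not. The 3 were *Gfra1*, *Ret* and the sort marker *Mcam*. The share of all genes lowest in the same 3 libraries is not given here, so the match is not shown to be particular to them. The sum of all 11 was lowest there, at 3913, 3781 and 3360 CPM in WT and 3935, 3654 and 3495 CPM in MUT. Without those 3 genes it came to 2655, 2540 and 2381 CPM in WT and 2740, 2680 and 2519 CPM in MUT, so that MUT replicate 2 was second only to MUT replicate 1. That second place depended on *Dazl*, the largest part of this sum. *Dazl* was at 916, 885 and 919 CPM in WT and 866, 959 and 837 CPM in MUT, highest in MUT replicate 2. Summed markers of differentiating spermatogonia were highest in MUT replicate 2, at 1020 CPM, the library lowest in *Etv4* and *Etv5*. Of the 6 genes on that list only *Stra8* and *Sohlh2* were higher in every MUT than in every WT library. So were 2 of the 11 genes for undifferentiated spermatogonia, *Nanos3* and *Lin28a*, and 2 of the 8 for Sertoli cells, *Wt1* and *Gata4*. Among all tested genes the share was 4.69%. Sertoli cells also use *Etv5*, and selection for tdTomato should remove them. Their summed markers were 59.1, 97.4 and 134 CPM in WT and 84.5, 115 and 110 CPM in MUT, most of it *Clu*, and without *Clu* the other 7 came to 25.2, 26.8 and 31.1 CPM in WT and 31.3, 36.8 and 29.2 CPM in MUT. The part of these cell types in the *Etv4* and *Etv5* levels was not tested.

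The proportions of the 3 factors were compared between genotypes, to see whether 1 of them differed where the others did not. The ratio of *Etv5* to *Etv4* per length was 1.43, 1.52 and 1.25 in WT and 1.48, 1.38 and 1.33 in MUT. Its mean log2 value was 0.48 in both groups (SD 0.144 in WT and 0.078 in MUT), with an exact permutation p of 1. The ratio of *Etv5* to *Etv1* was 331, 292 and 227 in WT and 395, 271 and 212 in MUT, a difference in mean log2 ratio of 0.017 (exact permutation p = 1). That of *Etv4* to *Etv1* was 231, 193 and 182 in WT and 267, 197 and 159 in MUT, a difference of 0.018 (exact permutation p = 0.9). Adjusted over these 3 ratios, each p was 1, and with 3 libraries in a group the test could not have passed 0.05.

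The genes most like each PEA3 factor over the 6 libraries were taken from the 10583 genes with a mean of at least 10 CPM, by Pearson's r of log2 CPM, as a description with no test. For *Etv5* they were *Tmc6* (r = 0.999), a transmembrane channel-like gene, *Foxo6* (r = 0.997), a forkhead factor, and *Lzts1* (r = 0.993). *Tmc6* stood at 53.5, 51.9 and 42.5 CPM in WT and 52.8, 38.9 and 42.4 CPM in MUT, with the same low and high libraries as *Etv5*. For *Etv4* they were *Mical1* (r = 0.984), an enzyme that acts on actin, *Sh2d3c* (r = 0.983), an adaptor of signalling at the cell membrane, and *Spry4* (r = 0.978), a feedback inhibitor of RAS to ERK signalling. *Spry4* was at 46.5, 42.8 and 39.9 CPM in WT and 48.6, 32.1 and 36.8 CPM in MUT. For *Etv1* they were *RP23-468D17.1* (r = 0.996), *Tap1* (r = 0.990), which carries peptides for MHC class I, and *Ankrd61* (r = 0.984). These are the highest of 10583 values, each over 6 libraries that also share depth and cell composition across genes, and for *Etv1* they rest on 30 to 43 counts a library.

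Genes around the PEA3 factors were then read from lists by role, from the ligand to the target, of which 82 different genes were tested. None was called at a false discovery rate of 0.1 by edgeR, by DESeq2 or with the replicate block, and the lowest adjusted p was 0.998 from edgeR. At an unadjusted p under 0.05 there were 5 of the 82 genes, all lower in MUT. Among all genes, 1.44% were lower and 1.34% higher at that threshold. Over all tested genes the median log2 fold change was 0.0066, and 48.2% of genes had a negative value.

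Of the 11 ligands and receptors upstream, such as *Gdnf*, *Ret* and the FGF receptors, 5 had a positive and 6 a negative log2 fold change, with a median of -0.019 and a range of -0.26 to 0.23. *Fgfr3*, a receptor for fibroblast growth factors, was at 21.7, 20.6 and 19.8 CPM in WT and 22.6, 28.4 and 21.8 CPM in MUT. Every MUT library lay above every WT library, as in 4.69% of all genes, with a log2 fold change of 0.23 (SE 0.12, adjusted p = 0.998 from edgeR). The 13 genes of the RAS to ERK cascade had a median log2 fold change of 0.034 and a range of -0.057 to 0.14, the highest being *Hras* itself (SE 0.083, adjusted p = 0.998 from edgeR). In this list 11 values were positive and 2 negative, and none had an unadjusted p under 0.05.

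The list of genes that hold PEA3 factors down, *Cic* with its partners *Atxn1* and *Atxn1l* and the COP1 ligase complex with its *Trib* adaptors, had 10 members in the files, where COP1 is listed under its older symbol *Rfwd2*. Their median log2 fold change was -0.0046 with a range of -0.16 to 0.11, 5 values of each sign, and none had an unadjusted p under 0.05. *Cic* stood at 477, 459 and 338 CPM in WT and 451, 457 and 465 CPM in MUT. WT replicate 3 had the lowest value of *Cic*, and *Etv5* was in its low set in that library too. The log2 fold change of *Cic* was 0.11 (SE 0.125, adjusted p = 0.998 from edgeR).

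Among the promoter entries for the members in RefSeq's table (GRCm38.p6), 2 starts each for *Etv1* and *Etv5*, TGAATG, the core of the site that capicua binds, was searched on both strands in the 250 bases before each start. All 4 starts lie within the span of their gene. The core was found before 1 start only, the second of *Etv5*. That window is printed here with the matches in capitals because it held 3 of them. No base of it falls in an exon of the gene in GENCODE vM21, as with the first window of *Etv1*. Of the 250 bases in the other windows, 149 were exon for the first start of *Etv5* and 241 for the second of *Etv1*.
Etv5, second start, chr16:22438369-22438618, minus strand: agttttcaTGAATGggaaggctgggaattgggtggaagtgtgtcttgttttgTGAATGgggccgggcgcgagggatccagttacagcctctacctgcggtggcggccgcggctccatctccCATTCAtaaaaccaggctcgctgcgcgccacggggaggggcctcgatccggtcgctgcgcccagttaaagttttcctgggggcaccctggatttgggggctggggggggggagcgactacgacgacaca
The matches begin 242, 198 and 129 bases before the start, and the last reads CATTCA since it lies on the other strand. Of 32851 mouse promoters of this length, 10.9% held TGAATG at least once and 0.131% held it 3 times or more. The octamer sites TGAATGAA and TGAATGGA, which contain the core, were in 2.07% of promoters and in none of the 4 windows, and CCGGAA, the core of many ETS sites, was in 12.03% of promoters and likewise in none of the 4. The core was chosen after the letters had been read, and the counts per gene do not tell which start was used.

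Downstream, 20 targets of ERK signalling were tested, of which 8 had a positive and 12 a negative log2 fold change, with a median of -0.067 and a range of -0.36 to 0.50. Of these, 3 had an unadjusted p under 0.05, all lower in MUT, beside 1.44% of all genes lower and 1.34% higher. *Egr2*, an immediate early transcription factor, was at 114, 115 and 105 CPM in WT and 101, 94.1 and 77.1 CPM in MUT. Every MUT library was below every WT library, as in 3% of all genes, with a log2 fold change of -0.30 (SE 0.101, unadjusted p = 0.0173, adjusted p = 0.998 from edgeR). *Spry1*, a feedback inhibitor of receptor signalling, was at 21.8, 23.4 and 24.5 CPM in WT and 20.7, 18.1 and 18.4 CPM in MUT. Again no MUT library reached the WT range, and the log2 fold change was -0.28 (SE 0.101, unadjusted p = 0.0210, adjusted p = 0.998 from edgeR). *Dusp6*, the phosphatase that switches ERK off, was at 137, 127 and 128 CPM in WT and 127, 99.2 and 104 CPM in MUT. MUT replicate 1 lay within the WT range here, as it did for *Etv4* and *Etv5*, and the log2 fold change was -0.25 (SE 0.098, unadjusted p = 0.0340, adjusted p = 0.998 from edgeR).

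The genes that depend on GDNF or on *Etv5* in spermatogonia were read last among the targets. Of 13 tested, 4 had a positive and 9 a negative log2 fold change. Their median was -0.084, with a range of -0.39 to 0.18. At an unadjusted p under 0.05 there were 2, both lower in MUT, beside 1.44% of all genes lower and 1.34% higher. One of these was *Egr2*, which is on both lists. The other was *T*, the gene for brachyury, at 17.8, 24.1 and 20.4 CPM in WT and 18.1, 12.5 and 16.9 CPM in MUT. Its lowest value was in MUT replicate 2, the library lowest in *Etv4* and *Etv5*, and MUT replicate 1 was inside the WT range. The log2 fold change of *T* was -0.39 (SE 0.166, unadjusted p = 0.0439, adjusted p = 0.998 from edgeR).

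The remaining ETS factors were set beside the PEA3 branch. Of 24 listed, 18 passed the filter, with 10 positive and 8 negative log2 fold changes, a median of 0.033 and a range of -0.40 to 0.35. The 3 with the highest CPM were *Elf2*, *Ets1* and *Gabpa*, with log2 fold changes of 0.041 (SE 0.060), -0.0047 (SE 0.104) and 0.039 (SE 0.073) and adjusted p-values of 0.998 from edgeR. *Elf2* stood at 126 CPM in all 3 WT libraries and at 134, 126 and 129 CPM in MUT, so the low set of *Etv5* libraries did not stand apart in *Elf2*. Nor did it in *Gabpa*, at 99.2, 100.3 and 105 CPM in WT and 102, 113 and 98.2 CPM in MUT. *Ets1*, however, was lowest in the same libraries as *Etv5*, at 120, 113 and 93.1 CPM in WT and 118, 101 and 105 CPM in MUT. *Elk1*, which ERK phosphorylates directly, was at 40.6, 41.6 and 33.5 CPM in WT and 47.6, 41.8 and 44.7 CPM in MUT. Its lowest MUT and highest WT libraries were close, and its log2 fold change was 0.21 (SE 0.101, adjusted p = 0.998 from edgeR). *Spi1*, a factor of macrophages and other blood cells, was at 12.7, 11.3 and 17.1 CPM in WT and 9.40, 11.7 and 10.1 CPM in MUT, with a log2 fold change of -0.40 (SE 0.176, unadjusted p = 0.0495, adjusted p = 0.998 from edgeR). WT replicate 3 was highest in *Spi1* and also in summed macrophage markers, at 774 CPM, whose part in this value was not tested.

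**Figure D5:**
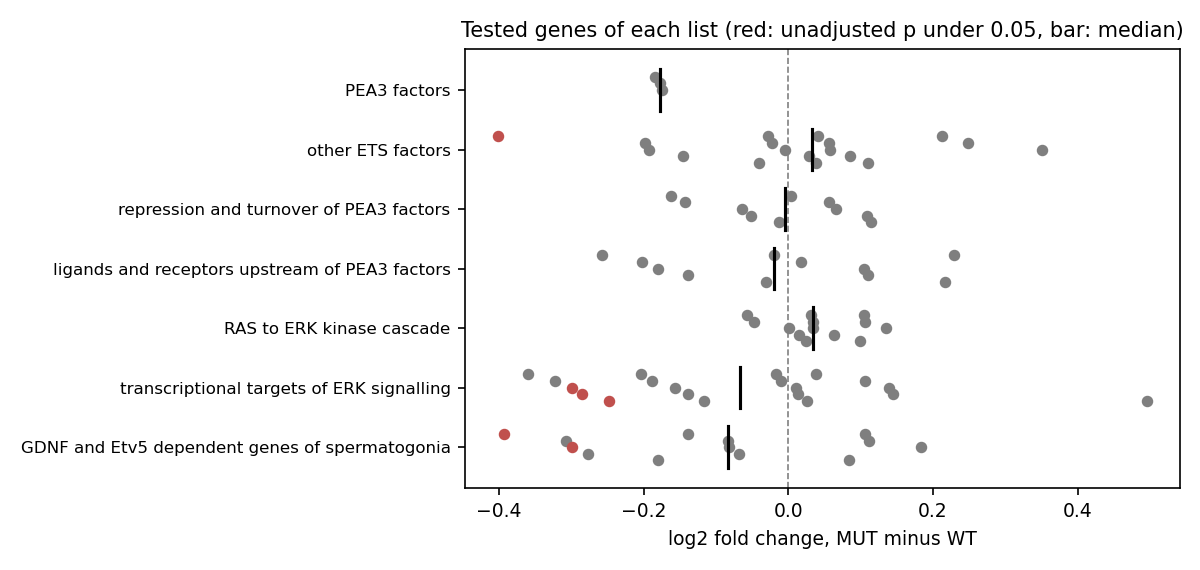
Log2 fold change, MUT minus WT, of every tested gene of the PEA3 factors and of each list, with red points for an unadjusted p under 0.05 and a black bar at the list's median. The PEA3 factors lie together at -0.18, and no gene of any list had an adjusted p under 0.998 from edgeR. *Egr2*, *Egr3* and *Ret* are drawn in 2 lists.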

How the data were processed

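The authors sequenced polyA RNA of 3 WT and 3 MUT mice as stranded 50-base paired reads and deposited unnormalized fragment counts for each gene name, made with featureCounts 1.6.2 on GENCODE vM17 of GRCm38.p6 with tdTomato added, disregarding strand and leaving out multi-mapping and ambiguous fragments. The submitters' processing notes also name FastQC and STAR. The 6 tables were merged on the gene name. In R 4.3.3, edgeR 4.0.16 scaled counts by TMM, kept 19656 genes with filterByExpr and ran its quasi-likelihood test on genotype alone, with Benjamini-Hochberg adjustment at a false discovery rate of 0.1. DESeq2 1.42.0 and limma 3.58.1 were alternatives. Levels per length divide CPM by kilobases of exon. The script for the test was checked on simulated counts first.

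Groups and replicate numbers came from the sample titles. For same-numbered WT and MUT libraries, deviations from the group means had correlations of 0.304, 0.156 and 0.395 for numbers 1, 2 and 3. These were taken across 10583 genes that are not independent of each other. WT replicate 2 correlated more with MUT replicate 1 (0.326) than with MUT replicate 2, so the values do not settle the pairing of numbers 1 and 2. That the numbers pair the libraries was therefore an assumption. Which WT and MUT mice were littermates is not given in the sources used here. Replicates of a group differed by more than sampling noise (chi-square per degree of freedom 4.67 to 27.6). The floor of 3 counts covers counting error only, as reads copied by PCR could not be told from separate molecules.

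The PEA3 factors and all gene lists were chosen with earlier results of these data known, and *Etv4* and *Etv5* are among the marker genes that the study itself showed for these samples. Genes named were the members, *Hras*, tdTomato, list genes with an unadjusted p under 0.05 or no overlap between groups, the 3 other ETS genes with the highest CPM, and the 3 genes most like each member. *Gfra1*, *Ret* and *Cic* were added for their roles, *Mcam*, *Dazl* and *Clu* from the marker lists, and *Erf*, *Erg*, *Elf3* and *Spdef* for their rank. A largest gap of over 50% of a gene's range was read as separate sets of libraries, and no correlation between members was then computed, while the likeness of other genes to a member is given for all 3 as a description. That rule was set after the values were seen.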

Additional observations from a re-analysis of the deposited data

How the results depend on the processing

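None of the 3 PEA3 factors was called under any of the 13 fitted alternatives, and each kept its negative estimate in all 13. Apart from leaving out a library, the log2 fold changes ran from -0.19 to -0.17 for *Etv4* and *Etv5* and from -0.20 to -0.18 for *Etv1*. With each library left out in turn they ran from -0.37 to -0.11 for *Etv1*, from -0.31 to -0.088 for *Etv4* and from -0.36 to -0.079 for *Etv5*.

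The differences in log2 ratio between genotypes were near 0 and changed sign with single libraries left out, from -0.080 to 0.060 for *Etv5* to *Etv4*, from -0.22 to 0.23 for *Etv5* to *Etv1* and from -0.18 to 0.19 for *Etv4* to *Etv1*. The order of levels was kept with each library left out, at mean log2 ratios of 0.46 to 0.51 for *Etv5* to *Etv4*, 8.04 to 8.22 for *Etv5* to *Etv1* and 7.58 to 7.73 for *Etv4* to *Etv1*, where 5 libraries cannot give an exact sign-flip p below 0.0625. Averaged over same-numbered pairs (the replicate block, added after the data were seen), the mean log2 ratios were 0.48, 8.14 and 7.66, with an exact sign-flip p of 0.25, the smallest that 3 pairs allow, instead of 0.0312. The correlation of *Etv4* and *Etv1* was -0.156 for deviations from the group means and ran from -0.692 to 0.508 with a library left out. The planned correlations with *Etv5* were not run, because its libraries form separate sets.

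The test on all genes called 2, compared with 9 by DESeq2, 4 by limma voom, 5 without a filter on low counts, 0 with at least 10 counts in every library (479 genes had an unadjusted p under 0.05 there) and 1 at a false discovery rate of 0.05. With a library left out, 0 to 6 were called, the 0 without MUT replicate 2 (292 genes with an unadjusted p under 0.05) and the 6 without MUT replicate 3. The replicate block raised the number to 13 in edgeR and 55 in DESeq2, and it changed no call of a PEA3 factor or a gene of the pathway lists. Of the pathway genes, 5 had an unadjusted p under 0.05, compared with 10 under the edgeR block and 8 when no low-count filter was used. With a library left out the number ran from 3, without MUT replicate 2, to 10, without MUT replicate 1. Among all tested genes, 547 of 19656 had such a p in the main fit, 1297 of 19656 under the block and 1083 of 37285 unfiltered. Leaving out MUT replicate 2 gave 292 of 20260 genes, and leaving out MUT replicate 1 gave 407 of 20272. The number over all genes thus rose under the block too, but fell without MUT replicate 1, where that of the pathway genes rose. The causes of these moves were not tested. *Etv1*, at 30 to 43 counts a library, has the widest interval of the 3 members.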
